A study of Homo sapiens with 11 samples.

Results

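The untreated cells described here are the 5 control libraries of a series of 11 RNA-seq libraries, chosen by their treatment label alone. They fall into 3 libraries labelled CTRL (24h) and 2 labelled CTRL (2h), and the other 6 libraries come from cells given a drug mixture (ODC) for 24 h or 2 h. All were made from Caki1-SR, a sunitinib-resistant subline of Caki-1, an established human clear cell renal cell carcinoma (ccRCC) line from a skin metastasis. Resistant cells of both control sets were grown in medium with 1 µM sunitinib, and the treated groups received 4 agents together, Rapta-C at 2 µM, parthenolide at 5 µM, and erlotinib and metformin at 1 µM each. The study calls the controls untreated in 1 place and sham-treated in another, and the labels do not say whether they received solvent. It worked with more than 1 resistant clone and names clone 1 for the cells treated for 24 h, while the labels name none for any library, so that a clone shared by both sets cannot be taken from them. The controls labelled 24 h carry January titles and those labelled 2 h carry November titles, and the sets were deposited in separate count tables. Time in control medium, month, table and culture therefore coincide between the control sets and cannot be told apart in any difference below. Nothing in the labels states that replicates came from separate cultures, so p-values measure the spread between these libraries, which may be technical.

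Clear cell renal carcinoma arises from tubular epithelium of the kidney. Loss of VHL in most such tumours stabilises hypoxia-inducible factors, which switch on angiogenic and glycolytic genes. Sunitinib blocks receptor tyrosine kinases of the VEGF and PDGF receptor families, KIT, FLT3, CSF1R and RET, and acts on tumour vessels as well as on tumour cells. Cells kept in the drug for long can use other receptors, retain the drug in lysosomes or change their epithelial or mesenchymal state. The comparison asks what the resistant cells express without the mixture, and how far 2 control sets of the same line are alike.

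Total counts were between 17785229 and 20882856 in the CTRL 24 h libraries and 25782895 and 28365455 in the CTRL 2 h libraries. A floor of 3 counts was worth between 0.106 and 0.169 CPM (counts scaled to a common library size) over the 5 libraries. Between 4.33% and 4.63% of a library's counts fell on its 10 highest genes. Replicates differed by more than sampling noise, with a chi-square per gene between 18.7 and 33.3, and each library was counted as 1 sample. Pearson's r of log2 CPM was 0.988 to 0.994 across genes within the sets, which share the line and the month.

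Both libraries labelled CTRL 2 h stood apart from the others in ways that touch the results, and the genes given here were chosen after their values were seen. Of 11543 genes with over 50 counts in either library, 40 were at least 4-fold higher in replicate 1 and 5 at least 4-fold higher in replicate 2. The CTRL 24 h pairs had 10, 11 and 21 genes that far apart. Replicate 1 held 41.1 CPM of COL3A1 and 36.9 CPM of COL1A2, fibrillar collagens of fibroblasts, whereas no other library of the series exceeded 0.193 and 0.354 CPM. The fibroblast proteoglycans DCN and LUM read 2.77 and 2.47 CPM in it. Its small structural RNAs were also high, with RN7SK at 19.5 CPM against 2.14 CPM in replicate 2, and RMRP at 11.9 against 1.58 CPM. At the depth of the shallowest control library it would be expected to show 16394 genes with a count, against 15211 to 15397 in the other 4 controls.

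The library labelled CTRL 2 h replicate 2 went against its label on genes that separate the ODC 2 h libraries. HMOX1, the heme oxygenase induced by oxidative stress, measured 228 CPM in it and 21.5 CPM in replicate 1, beside 326, 17.8 and 102 CPM in the libraries labelled ODC 2 h replicates 1, 2 and 3. EGR1, an immediate early transcription factor, measured 2.00 CPM in it and 40.1 CPM in replicate 1, beside 3.86, 157 and 6.52 CPM. DUSP6, a phosphatase that feeds back on ERK, followed the EGR1 order with 1.37 and 17.8 CPM in CTRL replicates 2 and 1. On these 3 genes the library labelled CTRL 2 h replicate 2 lay beside ODC 2 h replicates 1 and 3, and the library labelled ODC 2 h replicate 2 lay beside CTRL 2 h replicate 1. OSGIN1, SRXN1, GCLM, SLC7A11, PHLDA1, SPRY4, SPRY2, SOX9, CSF2 and CXCL8, also chosen after their values were seen, split the libraries in the same way. SRXN1 measured 91.8 and 191 CPM in CTRL 2 h replicates 1 and 2, beside 196, 104 and 164 CPM in ODC 2 h. PHLDA1 measured 334 and 45.1 CPM in the same CTRL libraries, beside 57.1, 168 and 75.2 CPM in ODC 2 h. ATF3, HSPA1B and CHAC1 did not follow this order. ATF3, a stress-induced factor, measured 4.07 and 19.5 CPM in CTRL 2 h replicates 1 and 2, beside 16.1, 16.4 and 22.9 CPM in ODC 2 h, so that ODC replicate 2 lay with the other ODC libraries. HSPA1B, a heat shock protein, measured 19.8 and 97.4 CPM beside 90.7, 18.3 and 18.8 CPM, with ODC replicates 2 and 3 beside CTRL replicate 1. Across all genes tested the CTRL 2 h replicates had a Pearson's r of 0.989 with each other, the lowest of any pair labelled 2 h. CTRL 2 h replicate 2 had an r of 0.995, 0.994 and 0.993 with ODC 2 h replicates 1, 2 and 3. For CTRL 2 h replicate 1 these values were 0.991, 0.992 and 0.990. The labels were kept and no library was moved.

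**Figure D1:**
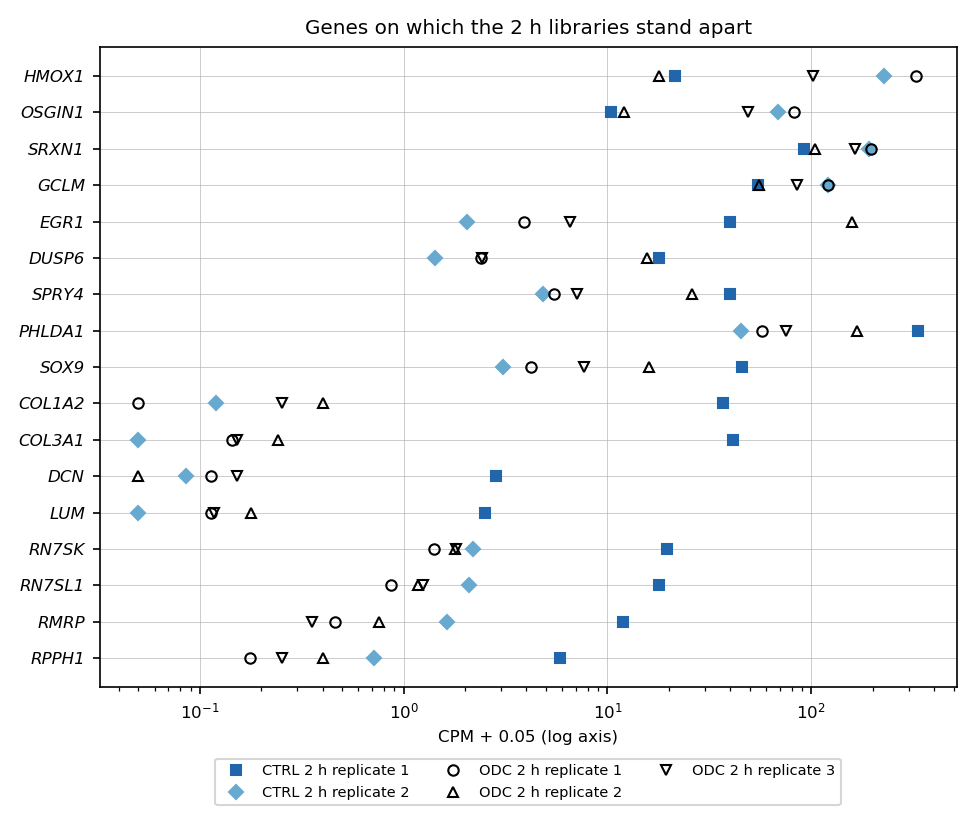
Levels of 17 genes in the 5 libraries labelled 2 h, as CPM plus 0.05 on a log axis, with 1 symbol per library (filled, CTRL; open, ODC). CTRL replicate 2 lies with ODC replicates 1 and 3 on HMOX1 and EGR1, and CTRL replicate 1 alone is high on collagens and structural RNAs.

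Markers of other cells were summed over each list as a check of the labelled cell type. The 12 fibroblast markers summed to between 67.9 and 144 CPM in CTRL 24 h libraries, with 323 and 137 CPM in those of CTRL 2 h, mostly from COL1A1, which tumour cells can also make, and DPT was at 0. The 12 endothelial markers summed to 4.78 to 8.40 CPM, with CLDN5 and CDH5 near 0 and EMCN at 0. The 15 leukocyte markers summed to at most 6.84 CPM at 24 h and to 19.7 and 14.7 CPM at 2 h, mostly from CD68, while PTPRC, the common leukocyte antigen, averaged 0.0353 and 0.0760 CPM and MS4A1 and CD3D were at 0. In bulk RNA, fewer cells of a type and less RNA per cell cannot be told apart.

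The untreated cells expressed 12091 of 26485 genes with at least 10 counts in each of the 5 libraries (45.7%), and 8368 genes had no count in any (31.6%). Among protein-coding genes 11226 of 19044 were present (58.9%), and among long noncoding RNA genes 374 of 2323 (16.1%). Levels between genes are compared per length, in TPM, the matching unit for transcripts, computed from counts and the exon length of the canonical transcript, and given as the mean ± SD of the 5 libraries. By that measure the 20 highest mRNAs encoded proteins of the cytoskeleton, glycolysis and the ribosome, with a chaperone and a nucleolar protein among them. TMSB10, a small actin-binding protein, averaged 9067 ± 1489.6 TPM, GAPDH 8913 ± 1264, and the actins ACTB and ACTG1 7415 ± 701 and 6145 ± 486 TPM.

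The glycolytic enzymes PKM, LDHA and ENO1 averaged 4994 ± 959, 4054 ± 838 and 3642 ± 265 TPM. The intermediate filament VIM stood at 3851 ± 213 TPM, the nucleolar protein NPM1 at 4875 ± 876, the chaperone HSPA8 at 3657 ± 456 and the tubulin TUBA1B at 3504 ± 277 TPM. Also in the top 20 were TMSB4X and the ribosomal protein genes RPS20, RPLP0, RPS18, RPLP2, RPS16, RPS12 and RPS24, from 3379 ± 292 TPM for RPS24 to 4257 ± 897 TPM for RPS20. Ribosomal protein genes have near-identical processed copies, so their counts are uncertain. Neighbours in this order overlapped between libraries, while TMSB10, GAPDH and ACTB exceeded every gene from PKM downward in each of the 5 libraries.

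**Figure D2:**
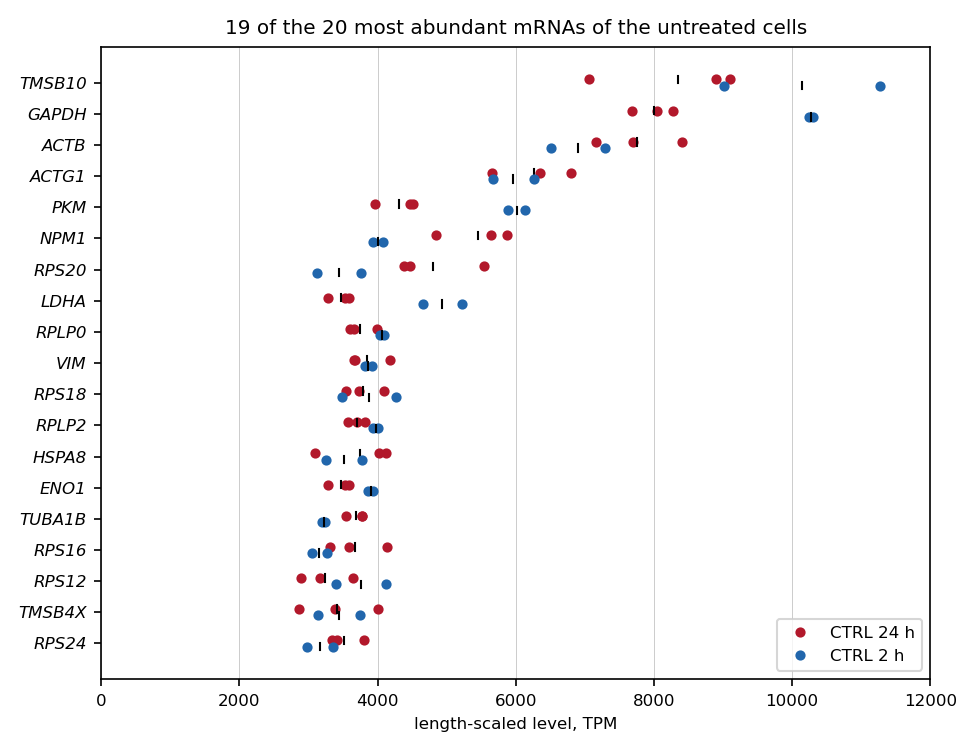
Length-scaled level (TPM) of 19 of the 20 most abundant mRNAs in each control library, with black bars at the set means (CTRL 24 h, n = 3; CTRL 2 h, n = 2). In TPM the control sets do not overlap for 10 of the 19, among them GAPDH, PKM and LDHA, higher at 2 h, and NPM1, higher at 24 h. Over all genes tested the sets do not overlap for 51.2%, a share counted on CPM and so not in the same unit.

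Lineage factors of the kidney differed widely in level. PAX8, the lineage factor of kidney epithelium, averaged 337 ± 61.8 TPM and the MiT family factor TFE3 37.1 ± 6.17 TPM. PAX2 averaged 0.0176 ± 0.0393 TPM, and HNF4A, SIX2, FOXI1 and IRX1 had no count in the 5 libraries. Of 25 proximal tubule genes 13 had at most 3 counts in every control library, among them the organic anion transporter SLC22A6 and the phosphate transporter SLC34A1. ANPEP, a brush border peptidase, was the highest of that list at 71.2 ± 23.7 TPM. Of 20 distal nephron and glomerular genes, 11 were at that floor, UMOD and AQP2 with no count at all.

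The ccRCC markers were split. CD70, a TNF family ligand of ccRCC cells, averaged 561 ± 79.0 TPM, the lactate exporter SLC16A3 413 ± 35.9 and NNMT, a methyltransferase, 248 ± 66.0 TPM. CA9, the carbonic anhydrase that hypoxia-inducible factors switch on, averaged 0.0119 ± 0.0266 TPM, with ESM1 and FABP7 at 0. VHL itself was expressed, at 86.8 ± 8.32 TPM, with HIF1A at 167 ± 41.8 and EPAS1, which encodes HIF-2α, at 30.5 ± 7.17 TPM. The chromatin tumour suppressors PBRM1, BAP1, SETD2 and KDM5C averaged 16.9 ± 1.78, 66.3 ± 5.00, 31.3 ± 4.28 and 40.3 ± 3.00 TPM.

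Of the 9 kinases that sunitinib inhibits, only PDGFRB was present, at 4.75 ± 4.04 TPM. FLT1 and KDR, the VEGF receptors, averaged 0.0181 ± 0.0404 and 0.0221 ± 0.0494 TPM and KIT 0.00715 ± 0.0160 TPM, and FLT3 and RET had no count. Other receptor kinases were abundant, led by MET, the hepatocyte growth factor receptor, at 486 ± 28.7 TPM and AXL at 382 ± 157 TPM, with EPHA2 at 167 ± 94.1 and EGFR at 84.9 ± 35.8 TPM. HGF, the ligand of MET, averaged 0.0123 ± 0.0168 TPM, whereas the EGFR ligands EREG and TGFA averaged 310.4 ± 164 and 115 ± 43.0 TPM. ABCB1, the P-glycoprotein drug pump, averaged 16.5 ± 6.40 TPM and ABCG2, another pump, 0.387 ± 0.243 TPM.

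The cells held epithelial keratins beside mesenchymal genes. KRT8 and KRT18 averaged 1054 ± 190.3 and 964 ± 93.3 TPM, but CDH1, the epithelial cadherin, 0.184 ± 0.169 TPM and its regulator GRHL2 0.0141 ± 0.0315 TPM. CDH2, the neural cadherin, averaged 95.7 ± 30.3 TPM, FN1 1389.8 ± 763 and ZEB1, a repressor of CDH1, 15.3 ± 0.957 TPM.

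Between the control sets, 12981 genes were tested and 903 (6.96%) passed an adjusted p of 0.05 with at least a 2-fold difference, 318 higher (2.45%) and 585 lower (4.51%) in CTRL 24 h. Differences are log2 of CTRL 24 h over CTRL 2 h, given with a standard error (SE), and a gene is called where it passed both limits. At any fold 2298 genes passed the adjusted p (17.7%), 1004 higher (7.73%) and 1294 lower (9.97%). That number was 1233, 1221, 873 and 1334 without CTRL 24 h replicate 1, CTRL 24 h replicate 3, CTRL 2 h replicate 1 and CTRL 2 h replicate 2. The median difference over all genes tested was 0.01. Among the called genes the median size was 1.55, and 96 differed by at least 3 on the log2 scale. In all 903 the libraries of the control sets did not overlap, as in 51.2% of all genes tested. Leaving out CTRL 2 h replicate 1 left 589 calls, of which 478 were among the 903, and leaving out replicate 2 left 878, of which 610 were among them. In these fits the lone 2 h library is assumed to vary like the CTRL 24 h libraries.

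MMP2, which encodes the gelatinase that degrades basement membrane collagen, had the smallest p of the lower genes. It measured 1.71, 2.70 and 1.96 CPM at 24 h and 93.9 and 72.3 CPM at 2 h. Every CTRL 2 h library exceeded every CTRL 24 h library many times over, a difference of -5.29 ± 0.21 (SE, adjusted p = 4.2e-05), and it kept its call without either CTRL 2 h library. MMP2 lies on chromosome 16 from 55389700 to 55506691 (GENCODE release 44, hg38). Some of the other lower genes with the smallest p encode proteins of the cell surface. The interleukin 1 receptor IL1R1 measured 17.9, 20.8 and 14.1 CPM at 24 h and 165 and 123 CPM at 2 h, with a difference of -3.03 ± 0.19 (SE, adjusted p = 0.00027). The giant cadherin FAT2 measured 37.4, 54.3 and 39.7 CPM at 24 h and 300.4 and 269 CPM at 2 h, with a difference of -2.70 ± 0.17 (SE, adjusted p = 0.00027). The membrane chemokine CX3CL1 measured 1.56, 2.70 and 2.30 CPM at 24 h and 21.6 and 23.2 CPM at 2 h, with a difference of -3.36 ± 0.23 (SE, adjusted p = 0.00028). For these 3 surface genes the sets lay far apart in every library.

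C3, the central complement component, measured 41.0, 62.1 and 54.7 CPM at 24 h and 386 and 286 CPM at 2 h, a difference of -2.68 ± 0.19 (SE, adjusted p = 0.00036). EPHX1, the microsomal epoxide hydrolase, measured 10.2, 14.0 and 10.5 CPM at 24 h and 72.9 and 103 CPM at 2 h, a difference of -2.93 ± 0.19 (SE, adjusted p = 0.00028). Both were lower in each CTRL 24 h library, and the remaining lower genes with the smallest p were SIPA1L2, HSPA12A, LZTS1, MRAS, PREX1, DENND2A, DISP1, GAL3ST1 and ALDH2. Their differences ran from -1.82 for ALDH2, the mitochondrial aldehyde dehydrogenase, to -4.73 for LZTS1. PREX1 encodes an activator of the GTPase Rac, MRAS a Ras-related GTPase, DISP1 a protein that releases Hedgehog ligands and GAL3ST1 the enzyme that makes sulfatide.

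FGB, the fibrinogen beta chain, which liver cells secrete for clotting, had the smallest p of the higher genes. It measured 15.5, 21.7 and 18.5 CPM at 24 h and 0.114 and 0.175 CPM at 2 h, a difference of 6.94 ± 0.33 (SE, adjusted p = 8.6e-05). FGA, the alpha chain, measured 2.34, 5.24 and 3.20 CPM at 24 h and 0.0380 and 0.105 CPM at 2 h, a difference of 5.52 ± 0.62 (SE, adjusted p = 0.00149). Both chains were at or near the floor at 2 h and above it in each CTRL 24 h library. FGG, the gamma chain of the same gene cluster and no member of any list, averaged 0.0855 CPM at 24 h and 0.0190 CPM at 2 h, both under the floor. The promoters of the 3 chains on chromosome 4 (RefSeq, GRCh38.p14, 250 bases before to 50 after the start, 5′ to 3′ on the gene's own strand) are shown because FGB and FGA were called and FGG was at the floor. Capitals mark CG dinucleotides, the sites of DNA methylation, which read the same on both strands.
FGB at chr4:154562730-154563029, + strand: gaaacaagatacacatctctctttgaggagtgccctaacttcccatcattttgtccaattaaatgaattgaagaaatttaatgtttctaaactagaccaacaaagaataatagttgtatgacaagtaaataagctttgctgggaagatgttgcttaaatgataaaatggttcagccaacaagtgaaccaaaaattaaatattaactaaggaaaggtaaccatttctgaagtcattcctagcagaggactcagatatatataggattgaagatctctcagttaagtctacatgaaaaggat
FGA at chr4:154590693-154590992, - strand: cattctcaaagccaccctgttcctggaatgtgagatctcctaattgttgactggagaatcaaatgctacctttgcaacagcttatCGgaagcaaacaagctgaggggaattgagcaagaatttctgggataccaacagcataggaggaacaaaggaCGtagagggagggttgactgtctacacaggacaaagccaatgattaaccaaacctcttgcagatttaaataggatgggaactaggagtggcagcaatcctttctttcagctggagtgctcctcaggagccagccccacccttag
FGG at chr4:154612607-154612906, - strand: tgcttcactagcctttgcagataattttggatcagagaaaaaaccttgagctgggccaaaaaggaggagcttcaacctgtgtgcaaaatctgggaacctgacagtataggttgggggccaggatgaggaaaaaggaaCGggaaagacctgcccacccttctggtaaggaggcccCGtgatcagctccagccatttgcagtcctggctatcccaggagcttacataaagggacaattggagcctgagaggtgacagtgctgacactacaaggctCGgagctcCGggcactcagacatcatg
These windows held 0, 2 and 4 CG dinucleotides in FGB, FGA and FGG, against a median of 14 over 27305 promoters and 26 over those of the genes tested, and 21 over those of genes called higher in CTRL 24 h. DNA methylation was not measured in these libraries.

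COL5A2, a fibrillar collagen chain, measured 70.3, 91.8 and 95.1 CPM at 24 h and 12.9 and 9.71 CPM at 2 h, a difference of 2.92 ± 0.20 (SE, adjusted p = 0.00028). GLI2, a transcription factor of the Hedgehog pathway, measured 18.4, 16.5 and 17.3 CPM at 24 h and 3.99 and 3.33 CPM at 2 h, a difference of 2.25 ± 0.18 (SE, adjusted p = 0.00062). DSP, the plakin of desmosomes, measured 30.5, 41.8 and 31.7 CPM at 24 h and 7.91 and 7.71 CPM at 2 h, a difference of 2.15 ± 0.19 (SE, adjusted p = 0.00075). In all 3 the CTRL 24 h libraries were uniformly above the CTRL 2 h libraries. SV2A, DMKN, PNMA2, ARHGAP18, TSPAN5, NLRP1, UGCG, NAP1L3 and SLC29A1 completed the higher genes with a known name, between 1.32 for UGCG, the glucosylceramide synthase, and 6.62 for NAP1L3. SLC29A1, an equilibrative nucleoside transporter, rose by 1.68 and NLRP1, an inflammasome sensor, by 4.30. The uncharacterised LOC101448202 and LOC100507639 rose by 2.74 and 1.92.

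**Figure D3:**
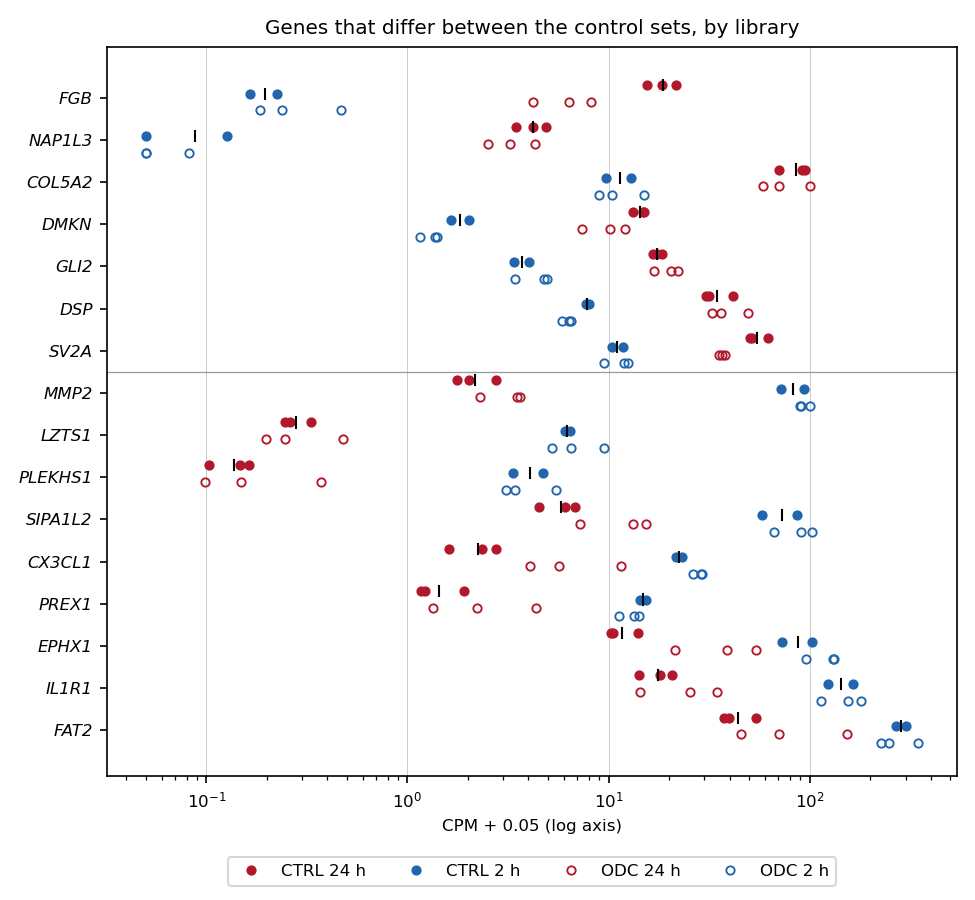
Levels of 16 called genes in every library, as CPM plus 0.05 on a log axis, with black bars at the arithmetic control means (filled, CTRL; open, ODC; red, 24 h; blue, 2 h). The 7 genes above the line are higher and the 9 below it lower in CTRL 24 h, and the treated libraries lie on the side of their own time label.

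Some called genes were at or under 3 counts in every library of a set, 13 of them at 2 h and 37 at 24 h. HBB, the beta globin, had no count at 2 h and 51 counts over the CTRL 24 h libraries, at least 16-fold higher than 3 counts over the set. NAP1L3 had 2 counts at 2 h and 235 at 24 h, a ratio of 111 with a 95% exact interval of 30.3 to 920. PDE1C, a cyclic nucleotide phosphodiesterase, and MAP6, which stabilises microtubules, had ratios of 27.8 and 24.0. In the other direction PLEKHS1 had 221 counts at 2 h and 5 at 24 h, a ratio of 46.9 with an interval of 19.8 to 146. CFI, which inactivates complement, had 212 counts against 4, a ratio of 56.2 with an interval of 21.6 to 208. PAK6, BCO1 and ACP5 had ratios of 39.2, 27.8 and 39.2. PCR reads without molecular identifiers are not independent molecules, so these intervals cover counting error only.

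Direct targets of bone morphogenetic protein signalling were among the lower genes. The ID genes encode inhibitors of basic helix-loop-helix factors and, with SMAD6 and ATOH8, are switched on by SMAD proteins after a BMP binds its receptor. ID1 measured 47.0, 27.3 and 48.5 CPM at 24 h and 128 and 143 CPM at 2 h, a difference of -1.73 ± 0.22 (SE, adjusted p = 0.00242). ID2 measured 4.49, 1.64 and 4.88 CPM at 24 h and 33.3 and 44.1 CPM at 2 h, a difference of -3.40 ± 0.36 (SE, adjusted p = 0.00111). SMAD6, an inhibitor in the same pathway, measured 1.07, 1.32 and 1.74 CPM at 24 h and 7.53 and 14.7 CPM at 2 h, a difference of -3.01 ± 0.34 (SE, adjusted p = 0.00149). ID4 and ATOH8 fell by 4.11 and 4.15 on the log2 scale. ID3 differed by -1.42 and did not pass the test (adjusted p = 0.214). Of 22 tested genes in the list of TGF-β and BMP targets 5 were called lower and 2 higher, with a list median of -0.25. Over all genes tested 4.51% were called lower and 2.45% higher, the shares beside which the counts of this list and the lists below stand. Among the higher genes was INHBA, an activin subunit chosen after its value was seen, which rose by 1.78 and whose adjusted p was 0.0571 without CTRL 2 h replicate 2.

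Targets of SRF and YAP, which respond to actin tension and cell spreading, went the other way, with 7 of 25 called higher and none lower against 2.45% called higher over all genes. CYR61, a matricellular protein, measured 693, 473 and 730.0 CPM at 24 h and 105 and 178 CPM at 2 h, a difference of 2.15 ± 0.26 (SE, adjusted p = 0.00214). AMOTL2, an angiomotin, measured 158, 183 and 190.2 CPM at 24 h and 48.8 and 82.7 CPM at 2 h, a difference of 1.43 ± 0.22 (SE, adjusted p = 0.00428). ANKRD1, a cardiac ankyrin repeat protein and textbook YAP target, measured 97.2, 31.9 and 126 CPM at 24 h and 10.1 and 10.8 CPM at 2 h, a difference of 3.02 ± 0.51 (SE, adjusted p = 0.00666). ANKRD1 did not keep an adjusted p under 0.05 without CTRL 2 h replicate 1, where it was 0.0555. CRIM1 and AXL also rose, by 1.06 and 1.17, and were at 0.72 and 0.98 without CTRL 2 h replicate 1. The list median was 0.18, and ACTB and ACTG1 differed by 0.18 and 0.08 without passing. At an adjusted p under 0.05, 8 genes of the list were higher, 4 without CTRL 2 h replicate 1 and 7 without replicate 2. The promoter of ANKRD1 is shown with GGAATG, the core bound by the TEAD partners of YAP, in capitals.
ANKRD1 at chr10:90921038-90921337, - strand, GRCh38.p14: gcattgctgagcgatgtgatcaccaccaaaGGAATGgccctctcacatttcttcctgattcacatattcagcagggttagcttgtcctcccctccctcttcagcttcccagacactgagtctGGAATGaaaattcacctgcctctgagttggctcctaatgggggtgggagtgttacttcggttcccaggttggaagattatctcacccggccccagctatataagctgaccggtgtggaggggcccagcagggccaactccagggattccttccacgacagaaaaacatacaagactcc
It held the core at bases -220 and -128 from the start, while 14.0% of 27305 promoters held GGAATG or its reverse complement CATTCC, as did 10.8% of the promoters of genes tested. Among the promoters of called genes 18.7% of the higher and 12% of the lower held it, and 4 of 19 promoters of this list did.

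Among receptor kinases that can stand in for the sunitinib targets, and their ligands, 5 of 26 were called higher and 1 lower, with a list median of 0.18. EGFR measured 362, 504 and 449 CPM at 24 h and 177 and 224 CPM at 2 h, a difference of 1.13 ± 0.17 (SE, adjusted p = 0.00417). AXL measured 851, 997 and 994 CPM at 24 h and 361 and 478 CPM at 2 h, and EPHA2, an ephrin receptor, rose by 1.47. EGFR was at 0.97, under the fold limit, without CTRL 2 h replicate 1, and EPHA2 had an adjusted p of 0.0735 without CTRL 2 h replicate 2. The kinase ROS1 and the ligand HBEGF, chosen after their values were seen, rose by 3.05 and 1.93, with an adjusted p of 0.128 for ROS1 without CTRL 2 h replicate 1 and 0.174 for HBEGF without replicate 2. FGFR3 fell by 1.56, with an adjusted p of 0.0576 without CTRL 2 h replicate 2, while FGFR4, with -0.88, passed the adjusted p below a 2-fold difference. PDGFRB, the one sunitinib target present, measured 6.64, 21.9 and 19.7 CPM at 24 h and 3.46 and 3.05 CPM at 2 h, a difference of 2.30 ± 0.47 (SE, adjusted p = 0.0141), and its adjusted p was 0.0767 and 0.0765 without CTRL 2 h replicate 1 and replicate 2. MET measured 1435, 1191 and 1412 CPM at 24 h and 1376 and 1366 CPM at 2 h and its difference of -0.03 ± 0.12 (SE) did not pass.

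Mesenchymal genes were called in both directions, 2 of 20 higher and 5 lower. Beside MMP2, S100A4, a calcium-binding protein, fell by 1.53, SNAI1 by 1.94, TNC, a tenascin, by 1.87 and COL6A3 by 2.15. SNAI1, TNC and COL6A3 were chosen after their values were seen. Without CTRL 2 h replicate 1, the library with fibroblast collagens, TNC and COL6A3 had an adjusted p of 0.153 and 0.0678, while MMP2, S100A4 and SNAI1 kept their calls. TNC had an adjusted p of 0.0567 without replicate 2 as well. CDH2 rose by 0.87, under the fold limit. Of 17 epithelial genes DSP and the tight junction gene CLDN1 were called higher, and EPCAM lower at -2.55. EPCAM read 3.80 CPM in CTRL 2 h replicate 1 and 0.806 CPM in replicate 2, and its adjusted p was 0.312 without replicate 1.

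Renal genes that were expressed differed in both directions, with 2 of 14 lineage factors called higher and 3 lower. LHX1, a factor of the early nephron, measured 28.2, 52.5 and 34.9 CPM at 24 h and 10.7 and 7.19 CPM at 2 h, a difference of 2.11 ± 0.30 (SE, adjusted p = 0.00341). POU3F3, a factor of the distal nephron, rose by 4.66, with an adjusted p of 0.0619 and 0.0875 without CTRL 2 h replicate 1 and replicate 2. EYA1, a cofactor of kidney development, fell by 2.46, TFAP2A by 1.20 and TFEB, a regulator of lysosomes, by 1.14. TFEB had an adjusted p of 0.0709 without CTRL 2 h replicate 1. PAX8 measured 444, 664 and 505 CPM at 24 h and 642 and 531 CPM at 2 h and did not pass (difference -0.13 ± 0.18, SE). Of 10 proximal tubule genes 4 were called lower and none higher, against 4.51% called lower over all genes, with a median of -0.82 that was -0.35 without CTRL 2 h replicate 1 and -1.18 without replicate 2. SLC4A4, the sodium bicarbonate cotransporter, fell by 1.83, GGT1 by 1.72 and AQP1, the water channel, by 3.31. CDH6, the kidney cadherin, measured 67.2, 50.2 and 9.25 CPM at 24 h and 393 and 217 CPM at 2 h, and its adjusted p was 0.0956 without CTRL 2 h replicate 1. CP, the ceruloplasmin of ccRCC signatures, fell by 3.61.

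Metabolic genes divided by pathway. Sterol synthesis and uptake had 9 of 26 genes with a higher level at an adjusted p under 0.05 and none lower, 2 of them called, and a median of 0.35. Without CTRL 2 h replicate 1 there were 4 such genes and without replicate 2 there were 6. DHCR7, the last enzyme of cholesterol synthesis, measured 127, 159 and 132 CPM at 24 h and 50.5 and 65.1 CPM at 2 h, a difference of 1.27 ± 0.16 (SE, adjusted p = 0.00229). SQLE, MVK and INSIG1 rose by 0.81, 0.74 and 0.95, each under the fold limit. ACSS2, which makes acetyl-CoA from acetate, fell by 2.67, while FASN, with 0.90, and SCD, with 1.02, were higher. SCD had an adjusted p of 0.131 and 0.061 without CTRL 2 h replicate 1 and replicate 2, and MVK and FASN 0.105 and 0.067 without replicate 1.

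Genes of serine synthesis and the amino acid response, which ATF4 controls, were called higher for 5 of 30, and 10 passed the adjusted p, all upward. ASNS, the asparagine synthetase, measured 158, 169.8 and 98.5 CPM at 24 h and 39.2 and 60.3 CPM at 2 h, a difference of 1.51 ± 0.26 (SE, adjusted p = 0.00734). PSAT1, in serine synthesis, rose by 1.08, and the amino acid transporters SLC1A5 and SLC38A2 by 0.72 and 0.59. The list changed with the CTRL 2 h library left out: its median was 0.22 with 3 genes past the adjusted p without replicate 1, and 0.89 with 18 without replicate 2. Without replicate 1 the adjusted p was 0.0557 for ASNS, 0.0632 for PSAT1 and 0.067 for SLC1A5. The other called genes, chosen after their values were seen, were PCK2, NUPR1 and SLC6A9, with adjusted p from 0.0702 to 0.144 in that fit.

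NRF2 targets, which detoxify oxidants and electrophiles, had 6 of 26 called lower against 4.51% over all genes, 11 past the adjusted p and a median of -0.56. Between the treated sets the same list had a median of 0.16, with 2 genes called higher and 1 lower. NQO1, the quinone reductase, measured 198, 186 and 224 CPM at 24 h and 414 and 473 CPM at 2 h, a difference of -1.13 ± 0.12 (SE, adjusted p = 0.00127). EPHX1, given above, belongs to the same list. HMOX1 measured 21.3, 16.9 and 41.2 CPM at 24 h and 21.5 and 228 CPM at 2 h and did not pass (adjusted p = 0.0757), with an adjusted p of 0.00746 without CTRL 2 h replicate 1 and 0.708 without replicate 2. The list median was -0.28, with 5 genes lower and 1 higher past the adjusted p, without the library labelled CTRL 2 h replicate 2, and -0.66 with 11 lower without replicate 1.

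The direction of immediate early genes and NF-κB targets changed with the library left out. The median of 28 immediate early genes was 0.30, but 1.00 without CTRL 2 h replicate 1 and -0.19 without replicate 2. The median of 23 NF-κB targets was 0.19, but 1.04 and -0.04 in the same fits. MYC rose by 1.19, and ICAM1, an adhesion molecule, fell by 1.17, with adjusted p of 0.0875 and 0.0968 without CTRL 2 h replicate 1.

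Nuclear long noncoding RNAs were higher, with 6 of 16 called higher and none lower and a median of 0.57. NEAT1, the scaffold of paraspeckles, measured 649, 811 and 584 CPM at 24 h and 286 and 248 CPM at 2 h, a difference of 1.35 ± 0.16 (SE, adjusted p = 0.00184). SNHG16, a host gene of small nucleolar RNAs, measured 432, 333 and 438 CPM at 24 h and 126 and 147 CPM at 2 h, a difference of 1.55 ± 0.16 (SE, adjusted p = 0.001). MALAT1, which resides in nuclear speckles, measured 189.9, 375 and 279 CPM at 24 h and 129 and 83.8 CPM at 2 h, a difference of 1.40 ± 0.29 (SE, adjusted p = 0.0146). The sets did not overlap in these 3, though MALAT1 had an adjusted p of 0.0815 without CTRL 2 h replicate 2. At an adjusted p under 0.05, 8 genes of the list were higher, 5 without replicate 1 and 2 without replicate 2, while the summed list was 2217 to 2272 CPM at 24 h against 1198 and 1303 CPM at 2 h. Structural RNAs followed CTRL 2 h replicate 1 instead: their median was -1.87 in all 5 libraries and 0.22 without it, and RPPH1, the RNA of RNase P, had an adjusted p of 0.129 without it.

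In several smaller groups the called genes were lower. The metallothioneins MT1E and MT1F fell by 1.53 and 2.11, and the interferon-stimulated OAS2, IRF7 and IFI6 by 2.76, 1.22 and 1.31, the 3 called of 25 against 4.51% called lower over all genes. CD14 and CD68, which the leukocyte list holds but other cells also express, fell by 3.48 and 1.17. PTPRC, the common leukocyte antigen, and CD3E, a marker of T cells only, had at most 4 and 3 counts in a control library. IFI6 had an adjusted p of 0.196 without CTRL 2 h replicate 1.

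**Figure D4:**
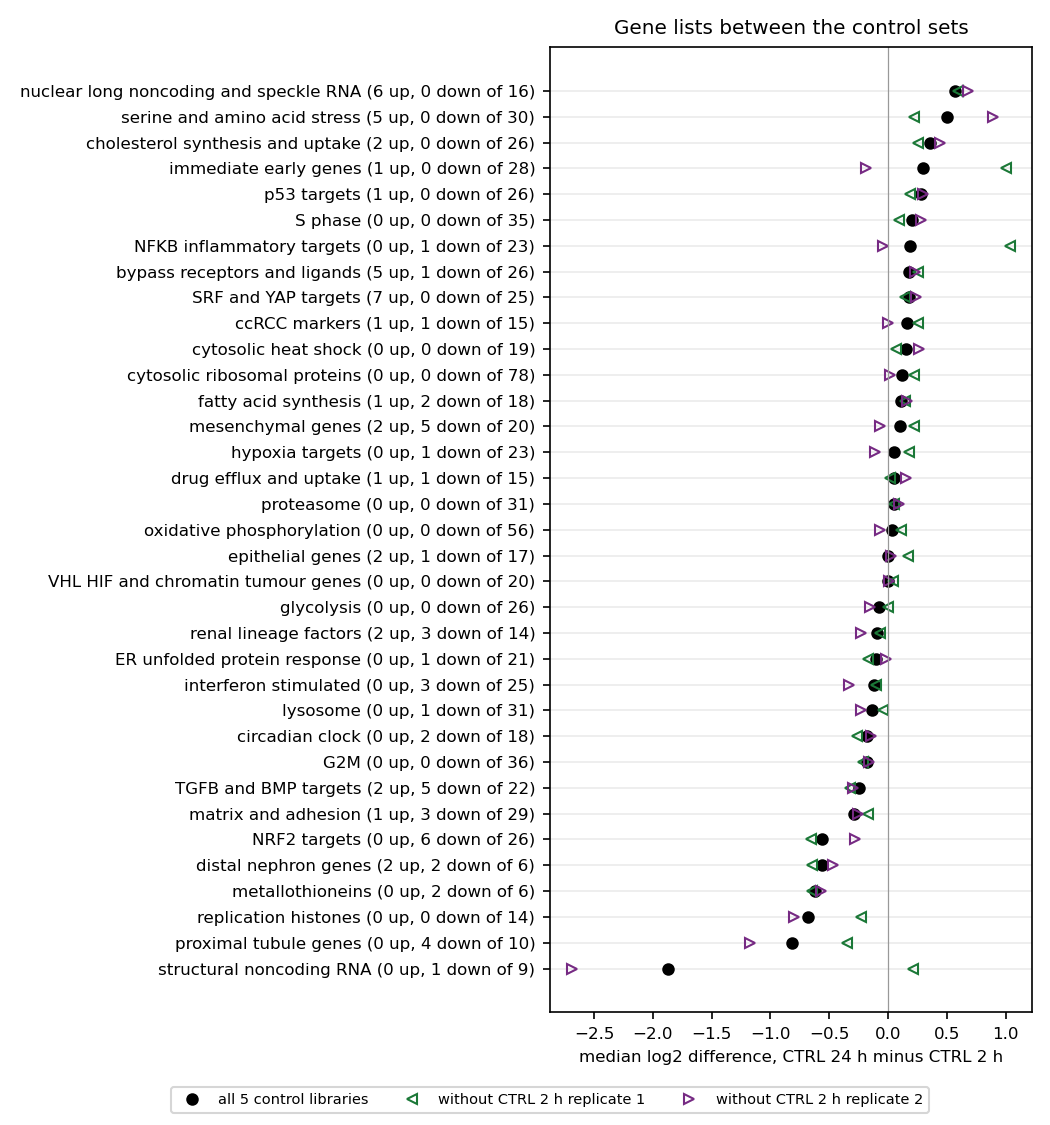
Median log2 difference (CTRL 24 h minus CTRL 2 h) of each list with at least 5 tested genes, from all 5 control libraries and without either CTRL 2 h library, with the number of called genes beside each name. Nuclear long noncoding RNAs lie highest at 0.57 and structural RNAs lowest at -1.87. Immediate early genes and NF-κB targets change side with the library left out. Other lists do so too, among them hypoxia targets and mesenchymal genes.

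Core machinery held no called gene in 6 lists. None of 78 cytosolic ribosomal protein genes, 56 oxidative phosphorylation genes, 31 proteasome genes, 35 S phase genes, 36 G2/M genes or 26 glycolysis genes was called, with medians of 0.12, 0.04, 0.05, 0.20, -0.18 and -0.08. At an unadjusted p under 0.05, edgeR had 13, 14, 8, 11, 13 and 9 genes of these lists, beside 4421 of all 12981 genes tested. DESeq2, the likelihood ratio test and the newer quasi-likelihood method also called 0 in each list. At an adjusted p under 0.05 and a smaller fold, the ribosomal genes RPL11 and RPL7 were higher, as were SDHB and UQCRFS1 of the respiratory chain, while SDHC and SDHA were lower. Without CTRL 2 h replicate 1 none of these 6 passed, with adjusted p from 0.0503 for SDHC to 0.101 for SDHB. CENPF, a kinetochore protein, was lower at -0.96. PKM and LDHA were lower at -0.47 and -0.50, with adjusted p of 0.148 and 0.15 without CTRL 2 h replicate 1. The 5 abundant uncalled genes with the smallest difference were RPL36, VIM, TMSB4X, RPS9 and EIF4G1, the last a scaffold of translation initiation, the largest of these being 0.01 for EIF4G1. VIM measured 3396, 3593 and 3186 CPM at 24 h and 3399 and 3385 CPM at 2 h and RPS9 514, 446 and 419 CPM at 24 h and 462 and 452 CPM at 2 h.

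Differences also ran along chromosomes. With 10697 genes of at least 3 CPM placed in 216 windows of about 50 adjoining genes, the median difference of a window exceeded 0.2 in size in 33. In each of these 33 the CTRL 24 h and ODC 24 h libraries lay on one side and all 5 libraries labelled 2 h on the other. The libraries separated in this way in 70 of all 216 windows. In 24 of the 33 the treated libraries also differed by more than 0.2 in the same direction. Chromosome regions below were drawn after the window values were seen, and levels per library are medians over the genes of log2 CPM relative to the mean of the 11 libraries. On the short arm of chromosome 7, from 497258 to 56106476, 154 of 189 genes were higher in CTRL 24 h, with a median of 0.37. The level was 0.18, 0.15 and 0.19 in the CTRL 24 h libraries and -0.20 and -0.16 in the CTRL 2 h libraries. On its long arm, in genes from 64519878 to 158956747, 247 of 337 genes were lower, with a median of -0.26.

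On the distal long arm of chromosome 1, from 205086142 to 248919946, 142 of 179 genes were lower, with a median of -0.51. The level there was -0.23, -0.28 and -0.18 at 24 h and 0.24 and 0.29 at 2 h. On the long arm of chromosome 16, from 46578591 to 90044975, 185 of 230 genes were lower, with a median of -0.33. On its short arm, from 46407 to 29996074, 112 of 214 were lower, with a median of -0.01. Short arm genes beyond 29996074 were left out of that stretch. The windows from 28532708 to 31042975 and from 31060843 to 57083531 had medians of -0.12 and -0.40, the last reaching into the long arm region. A stretch of chromosome 2 from 86020216 to 128318868 was higher, with a median of 0.33, whereas chromosome 12 had a median of 0.02 and both arms of chromosome 3 had 0.03 and 0.04. The medians of the 7 short arm, 1 long arm and 16 long arm regions stayed between 0.36 and 0.38, -0.56 and -0.45, and -0.33 and -0.28 without either CTRL 2 h library.

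Several named genes lie in such windows. MMP2, HERPUD1, MT1E and MT1F share the window of chromosome 16 with a median of -0.40, CX3CL1 lies in the next with -0.65, and SIPA1L2 and EPHX1 lie in a chromosome 1 window with -0.64. EGFR lies in a chromosome 7 window with 0.39. IL1R1 went against its window, being lower in CTRL 24 h within a chromosome 2 window with 0.44. FGB and FGA lie in a chromosome 4 window with -0.01. Windows beyond 0.2 had 8.82% of their genes called and the others 4.94%. The same differences chose the windows and decided the calls, so these shares cannot show a link between them. DNA copy number was not measured in these libraries, and its part in the differences was not tested.

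**Figure D5:**
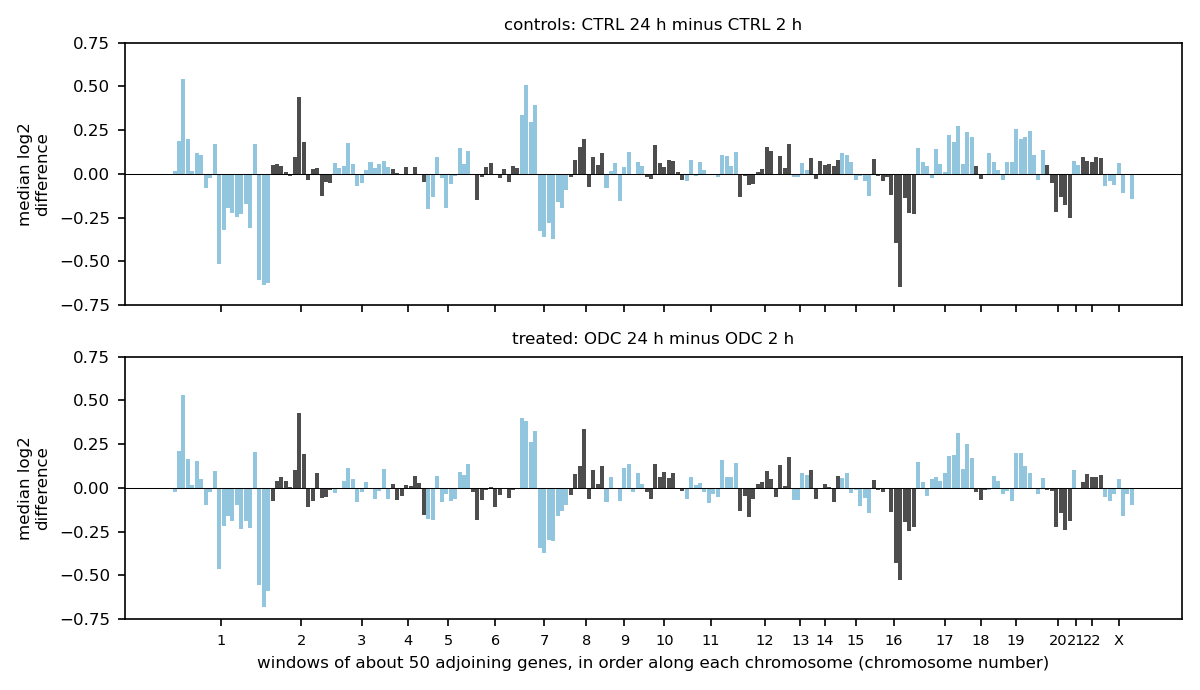
Median log2 difference between the 24 h and 2 h libraries in 216 windows of about 50 adjoining genes (x axis, windows in order along each chromosome; bars shaded by chromosome), for the controls above and the treated libraries below. Chromosome 7 changes sign between its arms, and the lowest windows are on the long arms of chromosomes 1 and 16 in both panels.

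The treated libraries share no library with the controls and differ by the same months and time labels, with drug time added, and so show whether the set difference held in other libraries. Of the 903 genes called between the control sets, 881 were also tested between ODC 24 h and ODC 2 h, and 868 of them differed in the same direction. In that comparison 1247 genes were called (9.57%), 622 of them the same way as in the controls, which is 68.9% of the control calls and 49.9% of the treated calls, and no control call was called the opposite way. Without ODC 2 h replicate 2, 1242 genes were called and 626 of them the same way. Over all genes tested in both, 81.4% had the same sign. MMP2 differed by -4.92 in the treated libraries, FGB by 4.61 and COL5A2 by 2.74. Of the 903 genes, 754 (83.5%) had all 6 libraries labelled 24 h beyond all 5 labelled 2 h in the same direction, against 53.5% of the 6645 genes whose control libraries alone did not overlap, as those of all 903 did, and 27.4% of all genes tested. Without CTRL 2 h replicate 2 and ODC 2 h replicate 2 the separated genes were 796 of the 903 (88.2%, against 61.3%). Comparing the 6 libraries labelled 24 h with the 5 labelled 2 h in 1 fit, without the treatment label, called 1159 genes (9.01%), 747 of them among the 903, and without the same 2 libraries 1238 and 761. The window medians of both comparisons had a Pearson's r of 0.95 over 216 windows, which share the genes, the months and the time labels.

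Of the 881 control calls tested, 259 were not called the same way in the treated libraries. C3 measured 189, 403 and 119 CPM in ODC 24 h against 356, 317 and 683 CPM in ODC 2 h, with a difference of -0.93 ± 0.44 (SE) that did not pass. ASNS and PSAT1 differed by 0.35 and 0.10, and SCD by -0.20, also without passing. The list of serine synthesis and the amino acid response had a median of 0.09 in the treated libraries, with 1 gene called higher and 1 lower. The test of the difference between the comparisons passed for NQO1 alone among the 178 named genes (adjusted p = 0.0174, edgeR), but its adjusted p was 0.0696 without CTRL 2 h replicate 1 and 0.115 without CTRL 2 h replicate 2.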

How the data were processed

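RNA was sequenced from poly(A)-selected, stranded libraries of 11 samples, of which the 5 controls are described here. Per the labels and the submitters' processing notes, the authors aligned reads with STAR 2.7.0f to hg38, assigned them to genes with HTSeq 0.9.1 and deposited whole-number read counts per gene in 2 tables, 1 for the libraries labelled 24 h and 1 for those labelled 2 h, with the same genes and no normalization. Here CTRL 24 h was compared with CTRL 2 h in edgeR 4.0.16 (R 4.3.3) with TMM scaling, filterByExpr (minimum count 10, minimum total count 15) and the quasi-likelihood F test with Benjamini-Hochberg adjustment over all genes tested, using these 5 libraries alone. A call required an adjusted p under 0.05 and at least a 2-fold difference. The same fit was run for ODC 24 h against ODC 2 h, and an interaction fit on all 11 libraries. Printed CPM were TMM-scaled over the 11 libraries, whereas differences, SEs and p-values come from the 5-library fit. TPM used exon lengths of canonical GENCODE 44 transcripts, with 23161 of 26485 gene symbols matched directly and 1384 through an older symbol.

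Named genes were the 20 highest by TPM, the 15 with the smallest p in each direction, up to 5 per list with an adjusted p under 0.05, 5 per direction at the floor, the 5 most stable of the 200 most abundant, members of the renal, epithelial, mesenchymal, kinase and VHL lists for their level, and marker genes, with some that met it not reported here. Genes named outside this rule, most of them for their baseline level, were chosen after their values were seen. Members and lists were chosen with earlier results of these data known. Depth of 17785229 to 28365455 counts per control library puts 3 counts at 0.106 to 0.169 CPM, and intervals and floors cover counting error only. Promoter sequences are from RefSeq (GRCh38.p14), using the first listed start. The fits were tested on simulated data. Alternatives covered filters, scaling, tests and each library left out.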

Additional observations from a re-analysis of the deposited data

Results flagged for a closer look

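NQO1 was the 1 named gene whose set difference differed between controls and treated cells, by an interaction term in edgeR's quasi-likelihood fit of all 11 libraries with Benjamini-Hochberg adjustment (adjusted p = 0.0174). Its CPM were 198, 186 and 224 in CTRL 24 h and 414 and 473 in CTRL 2 h, but 574, 601 and 573 in ODC 24 h and 514, 399 and 515 in ODC 2 h. The difference between the differences was -1.42 on the log2 scale, CTRL minus ODC. Neither the CTRL nor the ODC libraries overlapped between the sets, and they lay in opposite directions, lower at 24 h in CTRL and higher at 24 h in ODC. Its 2 h values split against the labels as those of HMOX1 did. CTRL 2 h replicate 2 lay nearer ODC 2 h replicates 1 and 3, and ODC 2 h replicate 2 lay beside CTRL 2 h replicate 1. In fits added after seeing the data the adjusted p was 0.0445 without ODC 2 h replicate 2, 0.0696 without CTRL 2 h replicate 1, 0.115 without CTRL 2 h replicate 2, and 0.127 without both libraries labelled 2 h replicate 2. Over all 13333 genes of the fit of all 11 libraries 2 passed an adjusted p of 0.05.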

How the results depend on the processing

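The comparison of the control sets called 903 genes, and between 589 and 1046 with 1 library left out, the lowest without CTRL 2 h replicate 1. Genes called higher ranged from 224 to 354 and genes called lower from 363 to 692 in the same fits, and the genes past the adjusted p at any fold, 2298 in all 5 libraries, from 873 to 2930. Comparing all 6 libraries labelled 24 h with all 5 labelled 2 h, chosen after seeing the data, called 515 genes higher and put 5888 past the adjusted p at any fold, and turned ABCC3 from lower to 0.0058 (adjusted p = 0.99, with more libraries in the fit). Other filters gave 732 to 1073 calls, other scalings 884 to 900, and other tests or a joint fit 898 to 1112. Leaving out 1 treated library, also chosen after seeing the data, gave 990 to 1317 calls between ODC 24 h and ODC 2 h, against 1247. Of 158 named genes past the adjusted p, 85 kept their direction and call in every alternative run. Of 312 list medians compared over 39 lists, 48 moved by more than the spread between replicates. Scaling moved the median of all genes by less than 0.1. No paired analysis was possible because the titles number the control sets 1, 3 and 5 and 1 and 2, sharing only 1 number. With 2 libraries at 2 h, a fit that leaves one out takes its spread from CTRL 24 h alone, and of 5 equal groups of genes by CPM the lowest, at 0.218 to 4.31 CPM, had 14.1% called against 3.12% in the highest.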

Other observations

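Segment genes of the nephron outside the proximal tubule, where they were expressed, differed in both directions. CLDN16, a tight junction protein of the thick ascending limb, measured 25.9, 39.1 and 36.6 CPM at 24 h and 8.67 and 6.45 CPM at 2 h, a difference of 2.16 ± 0.23 (SE, adjusted p = 0.00127). PODXL, the sialomucin of podocytes, measured 76.9, 71.1 and 110.4 CPM at 24 h and 24.7 and 22.2 CPM at 2 h, a difference of 1.88 ± 0.20 (SE, adjusted p = 0.00129). Both were higher in every CTRL 24 h library and kept their calls with any library left out. SLC26A4, the pendrin of intercalated cells, and CDH16, the kidney-specific cadherin, differed by -2.11 and -2.36, with adjusted p of 0.183 and 0.0678 without CTRL 2 h replicate 1. These are the 4 called of 6 tested.

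The counts of called genes in the lists of matrix and adhesion genes, of clock genes and those below stand beside 4.51% called lower and 2.45% higher over all genes. ITGB4, the integrin of hemidesmosomes, measured 4.34, 14.8 and 4.54 CPM at 24 h and 56.0 and 47.9 CPM at 2 h, a difference of -2.72 ± 0.45 (SE, adjusted p = 0.0062). LAMB3, a chain of its ligand laminin, measured 38.4, 16.7 and 31.9 CPM at 24 h and 128 and 109 CPM at 2 h, a difference of -2.03 ± 0.28 (SE, adjusted p = 0.00339). Both were lower in each CTRL 24 h library, and of 29 matrix and adhesion genes 3 were called lower and 1 higher, with a median of -0.29. The others, LAMA4 and ITGB8, were chosen after their values were seen and had adjusted p of 0.214 and 0.165 without CTRL 2 h replicate 1. Of 18 clock genes BHLHE41 and NPAS2 were called lower, by -2.10 and -1.52, NPAS2 with an adjusted p of 0.0639 without CTRL 2 h replicate 1. Of 23 hypoxia targets NDRG1 alone was called, lower by -1.31, and of 26 p53 targets GDF15 alone, higher by 1.41 with an adjusted p of 0.0668 without CTRL 2 h replicate 2. HERPUD1, of the endoplasmic reticulum, was the 1 called of 21 unfolded protein response genes, lower by -1.27 with an adjusted p of 0.105 without CTRL 2 h replicate 2. No heat shock gene of 19 and no replication histone of 14 was called by edgeR. At its unadjusted p under 0.05 there were 6 and 5, beside 4421 of all 12981 genes tested. The likelihood ratio test called 2 histones, the newer quasi-likelihood method 1 and DESeq2 none.

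The share of genes called by the edgeR test was 4.85% to 7.94% over 5 equal groups of genes by GC content and 5.92% to 8.05% over 5 by exon length, and the median difference of these groups lay between -0.04 and 0.04. Promoters of the genes called higher and lower held a median of 21 and 23 CG dinucleotides in 300 bases, against 26 over all genes tested.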
